A study of Mus musculus with 81 samples.

Results

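Neutrophils of the KK group, whose labels give the background KK.Cg-Ay/J, were set against neutrophils of the classical inbred mouse strains. The KK group was every sample with KK in its title: 2 arrays of 81, or 1 title group of 40. The other side was the 34 remaining classical title groups, with 69 arrays, and 5 wild-derived groups (titled CAS, JF1Ms, MSM, PWD and WSB, 10 arrays) stayed outside that comparison. All groups shared the same cell and the same handling: CD11b+ Ly6G+ cells sorted from the bone marrow of male mice labelled as 6 weeks old, with each array made from a small pool of mice. The labels name no treatment, so strain was the only difference between groups that they give. Values are log2 of the deposited array intensities, on which a difference of 1 is a 2-fold change.

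KK is a strain of Japanese origin that is used as a polygenic model of obesity and type 2 diabetes. The Ay allele of the agouti gene is a deletion that takes out most of Raly, affects its neighbour Eif2s2 and places agouti under the Raly promoter, so that carriers make agouti in nearly every tissue. Agouti protein blocks melanocortin receptors, which yields a yellow coat and, through the brain, overeating and weight gain. Neutrophils mature in the bone marrow, where they stop dividing and fill azurophil, specific and gelatinase granules one after another. Ay is lethal in homozygous form, so a KK.Cg-Ay/J stock holds carriers and non-carriers, and the labels do not say which were pooled; they also give no body weight or blood glucose.

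The KK arrays carried the neutrophil signature that the sort asks for. The 12 defining neutrophil markers averaged 13.14 and 13.08 in the KK arrays, against 13.07 to 13.21 in the 34 classical groups. Ly6g, the sorted surface marker, read 13.66 and 13.63 in KK, against a classical lowest, median and highest of 13.44, 13.61 and 13.88. Itgam, which encodes CD11b, read 12.62 and 12.56 in KK, against 12.48, 12.68 and 12.80. Ly6g and Itgam lay inside the classical spread. Of the 12 markers, 1 was called lower in KK (Camp) and 1 higher (Csf3r) in the array-level test described below. That test called 9.40% of all genes lower and 5.76% higher. For Camp and for Csf3r, both KK arrays lay outside the range of the 34 groups.

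The agouti label could not be seen in the values. Agouti (gene symbol a) read 6.05 and 6.30 in the KK arrays, against a classical lowest, median and highest of 5.96, 6.23 and 6.49. The difference was −0.06 ± 0.10 (SE), with a 95% interval of −0.25 to 0.13 and a limma adjusted p of 0.703 against the spread between arrays of a strain. Raly, the neighbour whose promoter drives agouti in Ay mice, read 9.56 and 9.48 in KK, against 9.43, 9.78 and 10.05 (−0.22 ± 0.09, 95% interval −0.41 to −0.04, adjusted p = 0.0939). Eif2s2, a translation initiation factor subunit, read 7.75 and 7.51 in KK, against 7.06, 7.60 and 8.25, a difference of −0.00 ± 0.15. KK ranked 25th, 30th and 14th from the highest of 35 groups for these 3 genes. Whether the probes of this array read the transcript that the Ay allele makes was not tested, and the group is called KK from here on rather than Ay, obese or diabetic.

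Few agouti and melanocortin genes were called. Of 11 measured, 1 was called higher in KK and none lower in the test against the spread between arrays, which called 5.76% of all genes higher and 9.40% lower. It was Mc2r, the ACTH receptor, at 5.15 and 5.16 in KK, against 4.54, 4.82 and 5.11 in the classical groups (0.33 ± 0.10, adjusted p = 0.0184). That call was lost without either KK array (adjusted p = 0.146 and 0.261). Mc4r, the brain receptor through which agouti acts on appetite, read 6.09 and 6.20 in KK, against 5.71, 5.85 and 6.14, and did not pass (adjusted p = 0.0578). Mc1r, the pigment cell receptor, read 6.86 and 6.83 in KK, against 6.57, 6.72 and 7.05, inside the classical range.

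A pair of tests was used throughout, both in limma with Benjamini-Hochberg adjustment over all 24922 probe sets and a threshold of 0.05. The strain-level test takes 1 mean per group and asks whether KK lies outside the spread of the 34 classical strains. The array-level test asks whether KK differs from the classical average by more than the arrays of 1 strain differ, so a gene that varies widely between strains can pass it without KK being unusual. Classical strains share ancestry, and the KK group is 2 pools of 1 stock, so an effect of Ay, of obesity and of the rest of the KK genome cannot be told apart in either test. The arrays were read with probes designed on the C57BL/6J sequence, and a variant under a probe can lower an intensity without a lower transcript level.

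At the strain level 19 probe sets were called, 0.0762% of those tested, with 8 higher (0.0321%) and 11 lower (0.0441%) in KK. They stood for 15 genes with a single symbol, 8 higher and 7 lower, and 2 probe sets without one. All 19 had both KK arrays outside the range of the 34 classical groups, a placing that 3.96% of all probe sets showed, 2.30% above and 1.66% below. The call and the placing use the same values, so the placing adds no independent support. At an unadjusted p under 0.05, 2500 probe sets passed. With the 2 KK arrays taken one at a time the count was 22 or 358, the larger when replicate 1 was left out, and quantile normalization called 35, of which 60.0% were higher against 42.1%.

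Ifi203, whose extreme KK level was already known from earlier results of these data, had the largest called rise. It belongs to the Ifi200 family of interferon-inducible nuclear proteins. The KK arrays read 9.26 and 9.50, against a classical lowest, median and highest of 3.65, 4.07 and 8.81. The classical groups sat in a tight band around that median, apart from PL/J at 7.06 and the group titled BTBR at 8.81, whose background label reads BPL/1J. KK was 5.08 ± 0.95 above the classical mean (strain-level adjusted p = 0.0109), 33.8-fold on the linear scale. JF1/Ms and MSM/Ms, the Japanese wild-derived strains, read 3.87 and 4.20.

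Its relatives did not share that step. Of 9 measured Ifi200 family genes, 3 were called higher and 1 lower at the array level, where 5.76% of all genes were called higher and 9.40% lower. Ifi207, the measured gene next to Ifi203, read 6.65 and 6.22 in KK, against 4.79, 5.43 and 7.93, and ranked 10th of 35 (0.54 ± 0.18, adjusted p = 0.0400). Its call was lost under either other scaling of the arrays (adjusted p = 0.0947 and 0.0941) and without either KK array (0.491 and 0.0938). Ifi213 read 6.15 and 6.25 in KK, against 5.46, 5.72 and 6.35 (0.44 ± 0.13, adjusted p = 0.0189). Under either other scaling and without either KK array, Ifi203 was the 1 higher call left in the family, so the Ifi213 call was lost there too. Aim2, the family's cytosolic DNA sensor, was lower, at 7.01 and 7.15 in KK, against 6.31, 7.64 and 9.37 (−0.56 ± 0.14, adjusted p = 0.00243), a call lost without KK replicate 1 (0.113).

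The other called rises were in 7 genes. Pxt1, a peroxisomal protein of male germ cells, read 10.63 and 10.75 in KK, against 7.15, 7.92 and 8.34 (2.80 ± 0.25, adjusted p = 2.93e-09). Its KK level was 6.97-fold the classical mean, and no classical group came near it. The wild-derived groups were split, and the high ones were PWD/PHJ at 11.62, MSM/Ms at 9.91, JF1/Ms at 9.68 and CAST/EiJ at 8.75. Armc12, an armadillo repeat protein of sperm mitochondria, read 8.32 and 8.43 in KK, against 6.69, 6.92 and 7.34 (1.44 ± 0.17, adjusted p = 5.94e-06). JF1/Ms at 9.05, PWD/PHJ at 8.92, MSM/Ms at 8.20 and the group titled WSB at 7.68 were above the classical range here too.

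M1ap, named for its role in male meiosis, read 8.19 and 8.17 in KK, against 6.33, 6.75 and 7.79 (1.38 ± 0.26, adjusted p = 0.0109). Col6a3, a chain of collagen VI in the extracellular matrix, read 8.34 and 8.83 in KK, against 6.69, 6.87 and 7.35 (1.71 ± 0.13, adjusted p = 5.5e-11). The KK arrays were further apart for Col6a3 than for most of these genes, and both cleared the classical range. JF1/Ms and MSM/Ms read 7.02 and 6.98 for Col6a3, within it.

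Pde10a, a phosphodiesterase that breaks down cAMP and cGMP, read 7.75 and 7.82 in KK, against 6.10, 6.53 and 6.97 (1.28 ± 0.21, adjusted p = 0.00306). Plpp2, a phospholipid phosphatase, read 6.94 and 7.34 in KK, against 6.04, 6.35 and 6.55 (0.79 ± 0.12, adjusted p = 0.00101). Lrcol1 read 6.86 and 7.14 in KK, against 6.31, 6.54 and 6.66 (0.47 ± 0.10, adjusted p = 0.0320), and JF1/Ms and MSM/Ms were also above that range at 6.77 and 6.74. That last call was lost with the arrays set to a common median (adjusted p = 0.117) and without KK replicate 2 (0.222).

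**Figure D1:**
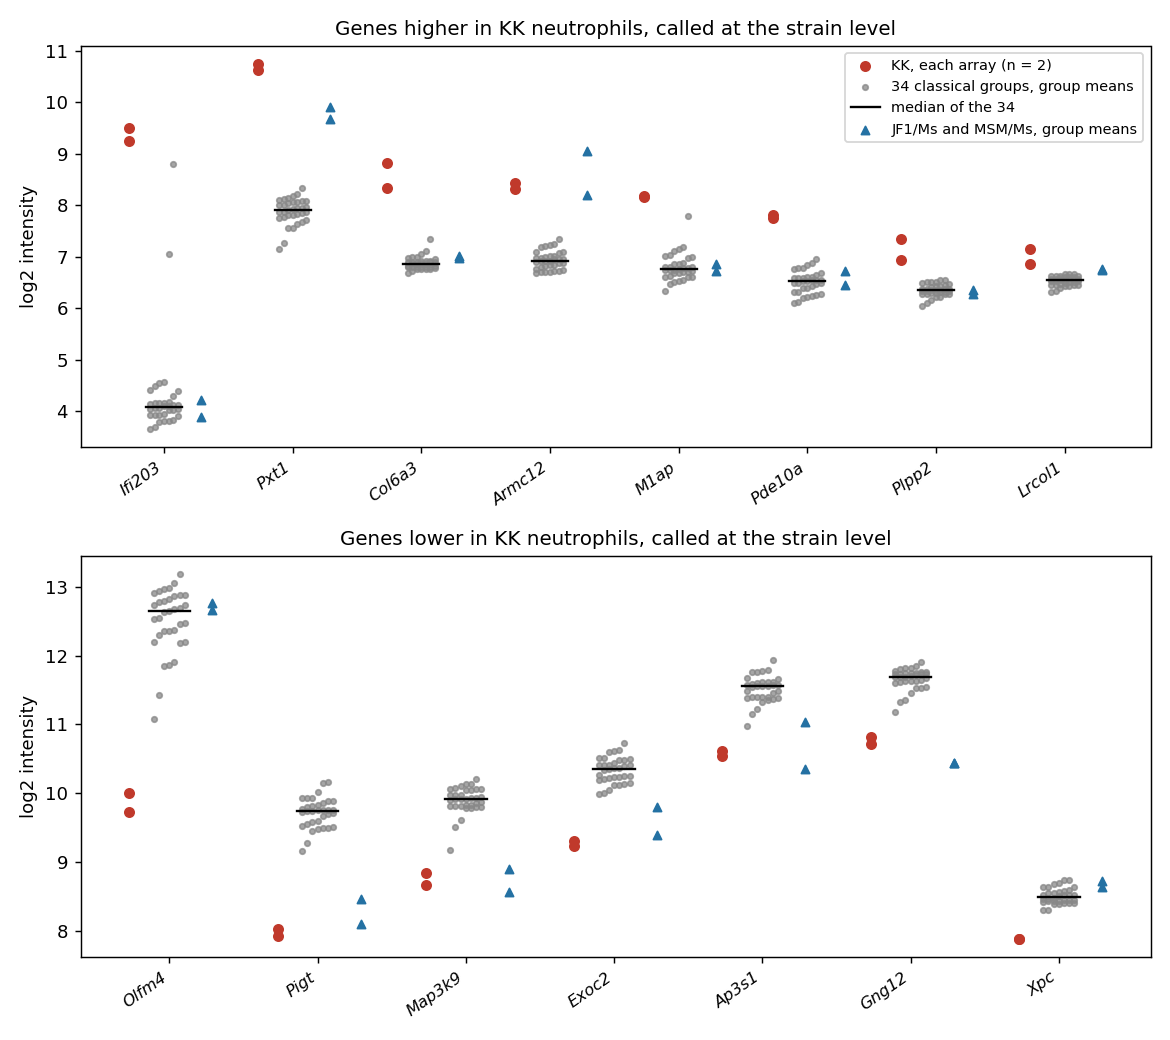
Log2 intensity (vertical axes) of the 15 genes called at the strain level, with each KK array in red at the left of its gene, the 34 classical group means in grey with their median as a bar, and JF1/Ms and MSM/Ms as blue triangles. Both KK arrays lie outside the grey points for every gene, and the triangles lie on the KK side of the grey points for Pxt1, Armc12, Lrcol1, Pigt, Map3k9, Exoc2 and Gng12.

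Olfm4, whose extreme KK level was likewise already known, had the largest called fall. It encodes olfactomedin 4, a specific granule glycoprotein that only some neutrophils carry. The KK arrays read 10.01 and 9.73, against a classical lowest, median and highest of 11.08, 12.64 and 13.18. The difference was −2.64 ± 0.46 (adjusted p = 0.00349), which is 6.22-fold lower on the linear scale. The next lowest groups were DDY/JclSidSeyFrkJ at 11.08 and RIIIS/J at 11.43, so the KK arrays were the lowest by more than 1 log2 unit. In bulk samples, fewer Olfm4-positive neutrophils and less Olfm4 RNA per cell cannot be told apart.

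The other called falls were in 6 genes. Pigt, a subunit of the enzyme that attaches GPI anchors to proteins, read 7.92 and 8.03 in KK, against 9.16, 9.75 and 10.16 (−1.74 ± 0.22, adjusted p = 9.43e-06). Map3k9, a mixed-lineage kinase upstream of JNK, read 8.67 and 8.84 in KK, against 9.17, 9.92 and 10.21 (−1.14 ± 0.20, adjusted p = 0.00349). Exoc2, a subunit of the exocyst that tethers vesicles to the plasma membrane, read 9.23 and 9.31 in KK, against 9.98, 10.36 and 10.74 (−1.07 ± 0.19, adjusted p = 0.00349). For all 3 genes JF1/Ms and MSM/Ms also lay below the classical range, at 8.11 and 8.46 for Pigt, 8.91 and 8.57 for Map3k9, and 9.80 and 9.40 for Exoc2. PWD/PHJ was below it too, at 8.55 for Pigt, 9.04 for Map3k9 and 9.08 for Exoc2. The group titled CAS was below it for Pigt (8.83) and Map3k9 (8.85) but not for Exoc2, and the group titled WSB lay within it for each gene.

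Ap3s1, the small subunit of the AP-3 adaptor that sorts cargo to lysosome-related organelles, read 10.62 and 10.54 in KK, against 10.98, 11.56 and 11.94 (−0.94 ± 0.19, adjusted p = 0.0307). All 3 probe sets of Ap3s1 were called, with differences of −0.94, −0.95 and −0.98. Each had NZB/BINJ as the lowest and SJL/J as the highest classical group, and whether they read the gene independently was not tested. Among the wild-derived groups, Ap3s1 read 10.35 in MSM/Ms, below both KK arrays, and lay within the classical range in the others. Without the 5 groups whose title and background labels disagree, its adjusted p was 0.0577. Gng12, a G protein gamma subunit, read 10.71 and 10.81 in KK, against 11.18, 11.69 and 11.90 (−0.90 ± 0.15, adjusted p = 0.00349), and JF1/Ms and MSM/Ms were lower still at 10.44 each. Xpc, which recognises DNA damage for excision repair, read 7.89 in both KK arrays, against 8.30, 8.50 and 8.74 (−0.62 ± 0.12, adjusted p = 0.0109), and its adjusted p was 0.0752 after quantile normalization. For Xpc the wild-derived PWD/PHJ at 7.86 and the group titled WSB at 8.23 were also below the classical range, and the other wild-derived groups lay within it.

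When the 5 wild-derived groups joined the comparison, 6 probe sets were called. Among the 15 genes, Pxt1, Armc12, Lrcol1, Pigt, Map3k9, Exoc2, Ap3s1, Gng12 and Xpc then missed the threshold, with adjusted p-values between 0.216 and 0.585. Ifi203, Col6a3, M1ap, Pde10a, Plpp2 and Olfm4 passed it there and under every other alternative in which they were tested.

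Other genes placed KK at an extreme of the 35 KK and classical groups that the strain-level test did not call. Gpr141b, an orphan receptor, read 8.86 and 8.89 in KK, against 6.36, 6.85 and 8.63, with the group labelled LGJ as the highest of the others (adjusted p = 0.124, and 0.0310 without KK replicate 1). Mcee, methylmalonyl-CoA epimerase of propionate breakdown, read 8.49 and 8.45 in KK, against 9.07, 11.03 and 11.40 (−2.42 ± 0.54, adjusted p = 0.0674). The wild-derived PWD/PHJ was lower still at 8.37, and JF1/Ms at 8.82 and the group titled WSB at 8.89 were also below the classical range. MSM/Ms at 9.46 and the group titled CAS at 11.09 lay within it. The Mcee call was gained without KK replicate 1 (adjusted p = 0.0197) and without the 5 groups of conflicting labels (0.0206). Txndc16, an endoplasmic reticulum thioredoxin-domain protein, read 6.59 and 6.71 in KK, against 7.18, 8.32 and 8.69 (adjusted p = 0.195).

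Plekhg1 read 10.38 and 10.32 in KK, against 6.36, 9.48 and 10.00 (adjusted p = 0.635). Cdkl2, a cyclin-dependent-kinase-like kinase, read 7.73 and 7.53 in KK, against 4.97, 6.05 and 7.42 (0.446). Plekhs1 read 7.14 and 7.24 in KK, against 4.89, 5.34 and 6.93, with DDY as the highest of the others (0.266). Each of these 3 genes was highest in KK of 35 groups.

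Some called genes, and the uncalled Mcee, had neighbours in the annotation order that also differed. Over all probe sets, 15.0% were called at the array level and 3.96% had both KK arrays outside the classical range. Whether neighbours of these genes differed more often than that was not tested. Around M1ap, 5 consecutive measured genes all placed both KK arrays outside the classical range, in mixed directions: Pole4, a DNA polymerase epsilon subunit, was −1.04, the hexokinase Hk2 −0.52, the semaphorin Sema4f 0.73, M1ap 1.38, and the docking protein Dok1 −0.54. The measured genes beyond them, Tacr1 and Loxl3, had differences of 0.22 and 0.06 and lay within it. Armc12 and Pxt1 lie near each other, with 10 measured genes between them. Their differences ran from −0.37 to 0.25, and limma called 1 of them at the array level (Mapk13, −0.37 ± 0.12, adjusted p = 0.0301), where 15.0% of all probe sets were called, and 0 at the strain level, where 1 had an unadjusted p under 0.05. The Mapk13 call was lost without either KK array (0.121 and 0.430).

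Near Mcee, Tjp1, which encodes a tight junction scaffold, read 6.91 and 6.98 in KK, against 5.10, 5.36 and 6.80 (1.49 ± 0.35, strain-level adjusted p = 0.0861). Tjp1 read 6.96 in JF1/Ms and 6.88 in MSM/Ms, also above the classical range. It passed without KK replicate 1 (0.0235) and without the 5 groups of conflicting labels (0.00952). Mphosph10 and Mtmr10 in the same neighbourhood had differences of −0.77 and −0.70 (array-level adjusted p = 5.29e-06 and 1.29e-04). Sys1, a Golgi protein encoded near Pigt, read 8.25 and 8.45 in KK, against 8.29, 9.23 and 9.55 (−0.86 ± 0.11, array-level adjusted p = 8.92e-08). Mpc1, a subunit of the mitochondrial pyruvate carrier encoded near Pde10a, read 11.16 and 11.14 in KK, against 9.33, 10.15 and 11.14 (0.90 ± 0.11, array-level adjusted p = 1.66e-08).

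**Figure D2:**
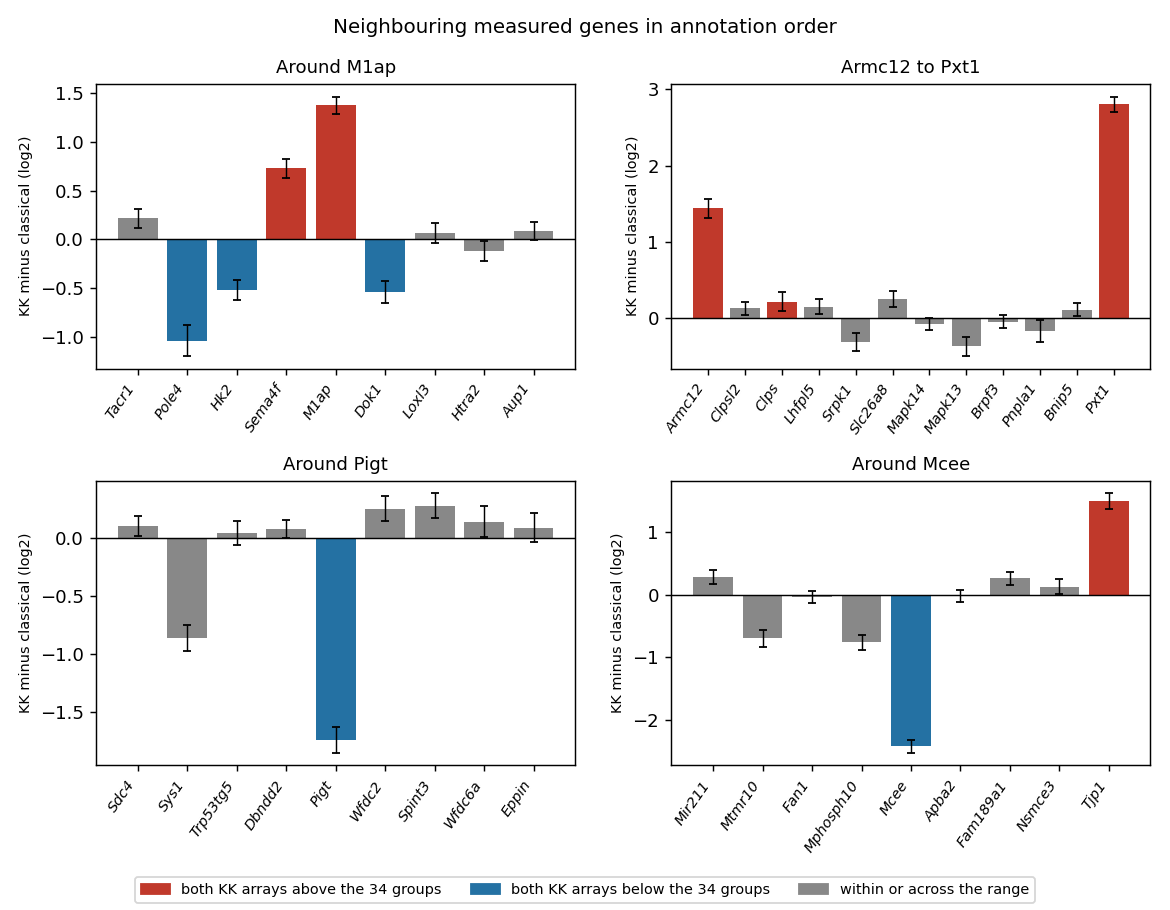
Difference between KK and the classical mean (vertical axes, log2, with the array-level SE as error bars) for neighbouring measured genes in annotation order around M1ap, from Armc12 to Pxt1, around Pigt and around Mcee. Red and blue bars mark genes with both KK arrays above or below all 34 classical groups; 5 such bars stand side by side around M1ap, while between Armc12 and Pxt1 the differences run from −0.37 to 0.25.

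At the array level 3744 probe sets were called, 15.0% of those tested, with 1427 higher (5.73%) and 2317 lower (9.30%). Higher calls made up 38.1% of all calls, a share that was 23.8% with the arrays set to a common median and 48.4% after quantile normalization. Leaving out a KK array brought the count to 1703 or 1034. Over 19752 genes the median difference was 0.05, and 5.76% of genes were called higher and 9.40% lower, the background for the gene lists that follow. Among genes whose KK mean or classical median was at least 7, the median difference was −0.036. Of the genes in all the lists, only Ifi203 and Olfm4 were also called at the strain level. Both were named with their extreme KK level already known from earlier results of these data, so their calls add no independent support.

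The cell-cycle genes were low in KK. Of 21 measured, 20 were called lower, with a median difference of −1.12 over the list, and the remaining gene, the replication factor Mcm3, was −0.22 (adjusted p = 0.193). Averaged over the list, the KK arrays read 7.04 and 7.21, against a classical lowest, median and highest of 6.81, 8.29 and 9.50. Of the classical groups 2 lay below KK, with NOR/LtJ as the lowest, so the KK level was near the low end of the classical range and not outside it. The count was 17 and 16 without KK replicates 1 and 2, and 20 under either other scaling.

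Bub1, a spindle checkpoint kinase, read 5.47 and 5.68 in KK, against 5.53, 7.37 and 8.93 (−1.68 ± 0.21, adjusted p = 4.15e-08). Top2a, the topoisomerase of dividing cells, read 6.95 and 7.44 in KK, against 6.45, 9.13 and 10.35 (−1.60 ± 0.29, adjusted p = 5.56e-05). Ccna2, cyclin A2, read 7.53 and 8.29 in KK, against 7.76, 9.78 and 10.91 (−1.59 ± 0.25, adjusted p = 4.28e-06). KK ranked 2, 3 and 4 from the lowest of 35 groups for these genes, and they did not pass at the strain level (adjusted p = 0.540, 0.554 and 0.549). At the strain level limma called 0 of the 21 genes, and 0 had an unadjusted p under 0.05.

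A pair of further cell division genes had KK as the lowest of the 35 KK and classical groups. Spc25, a kinetochore subunit, read 5.61 and 5.66 in KK, against 5.90, 7.31 and 8.70. Anln, the cytokinesis scaffold anillin, read 6.70 and 7.03 in KK, against 7.13, 8.42 and 9.47, while the wild-derived group titled CAS read 6.62. Neither passed at the strain level (adjusted p = 0.497 and 0.465).

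Early granule genes were read as an azurophil list of 9. Of these, 2 were called lower and none higher, where 9.40% of all genes were called lower and 5.76% higher. The median difference was −0.17, and the KK list mean of 7.43 had 2 classical groups below it. Ms4a3, a marker of granulocyte-monocyte precursors, read 5.92 and 5.84 in KK, against 5.75, 6.57 and 8.04 (−0.69 ± 0.17, adjusted p = 0.00297). Cd63, a membrane protein of azurophil granules, read 8.80 and 8.83 in KK, against 7.47, 9.53 and 10.14 (−0.57 ± 0.17, adjusted p = 0.0129). Neither call held without either KK array, and Cd63 was also lost after quantile normalization (adjusted p = 0.0589).

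The specific granule genes split. Of 12, 2 were called lower, 2 higher, and the median difference was 0.02. Besides Olfm4, the fall was in Camp, the cathelicidin antimicrobial peptide, at 12.71 and 12.76 in KK, against 12.93, 13.24 and 13.53 (−0.51 ± 0.08, adjusted p = 1.89e-06), with both KK arrays below every classical group. Ceacam10, an adhesion molecule, was higher, at 11.73 and 11.61 in KK, against 10.48, 11.27 and 11.75 (0.43 ± 0.10, adjusted p = 0.00130), a call lost without KK replicate 1 (0.0951). Chil3, the chitinase-like protein Ym1, was the other higher call, at 12.49 and 12.48 in KK, against 4.08, 11.85 and 13.02 (1.43 ± 0.14). A few strains near 5 pulled the classical mean down and so widened that difference, and KK ranked 10th of 35. Whether the call held without those strains was not tested.

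In limma the gelatinase granule list had 0 of 5 genes called and the chemoattractant receptor and adhesion list 0 of 12, with 0 and 1 at an unadjusted p under 0.05. Csf3r, the G-CSF receptor that drives neutrophil production, was slightly above the classical range, at 12.99 in both KK arrays, against 12.41, 12.80 and 12.96 (0.22 ± 0.07, adjusted p = 0.0291). That call was lost with a common median (0.158) and without either KK array (0.183 and 0.308). Padi4, the enzyme that citrullinates histones in extracellular traps, read 11.75 and 11.89 in KK, against 11.09, 11.52 and 11.84 (0.32 ± 0.07, adjusted p = 5.8e-04), a call lost without KK replicate 2 (0.159). Ncf1, the NADPH oxidase subunit p47phox, read 12.24 and 12.21 in KK, against 12.24, 12.40 and 12.62 (−0.19 ± 0.07, adjusted p = 0.0372), with both KK arrays just below every classical group. Its call did not hold after quantile normalization or without either KK array.

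Capg, an actin filament capping protein, had the widest gap of any listed gene after Ifi203. It was named with its extreme KK level already known from earlier results of these data. The KK arrays read 6.57 and 6.72, against a classical lowest, median and highest of 6.71, 11.37 and 11.84 (−4.08 ± 0.13, array-level adjusted p = 1.22e-29). KK was not alone: PL/J at 6.71, AKR/J at 7.27, NOD/ShiLtJ at 7.41, NOR/LtJ at 7.48, MRL/MpJ at 7.55 and the group titled BPL at 7.73 formed the same low cluster, and so did the wild-derived JF1/Ms at 7.13. The strain-level adjusted p was 0.409. Of 16 actin-capping and actin-regulating genes, 3 were called lower and none higher, and 1 was called lower without either KK array. Gsn, the related protein gelsolin, read 10.35 and 10.33 in KK, against 10.36, 10.82 and 11.28 (−0.47 ± 0.12, adjusted p = 0.00324), a call lost without either KK array (0.0660 and 0.123).

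**Figure D3:**
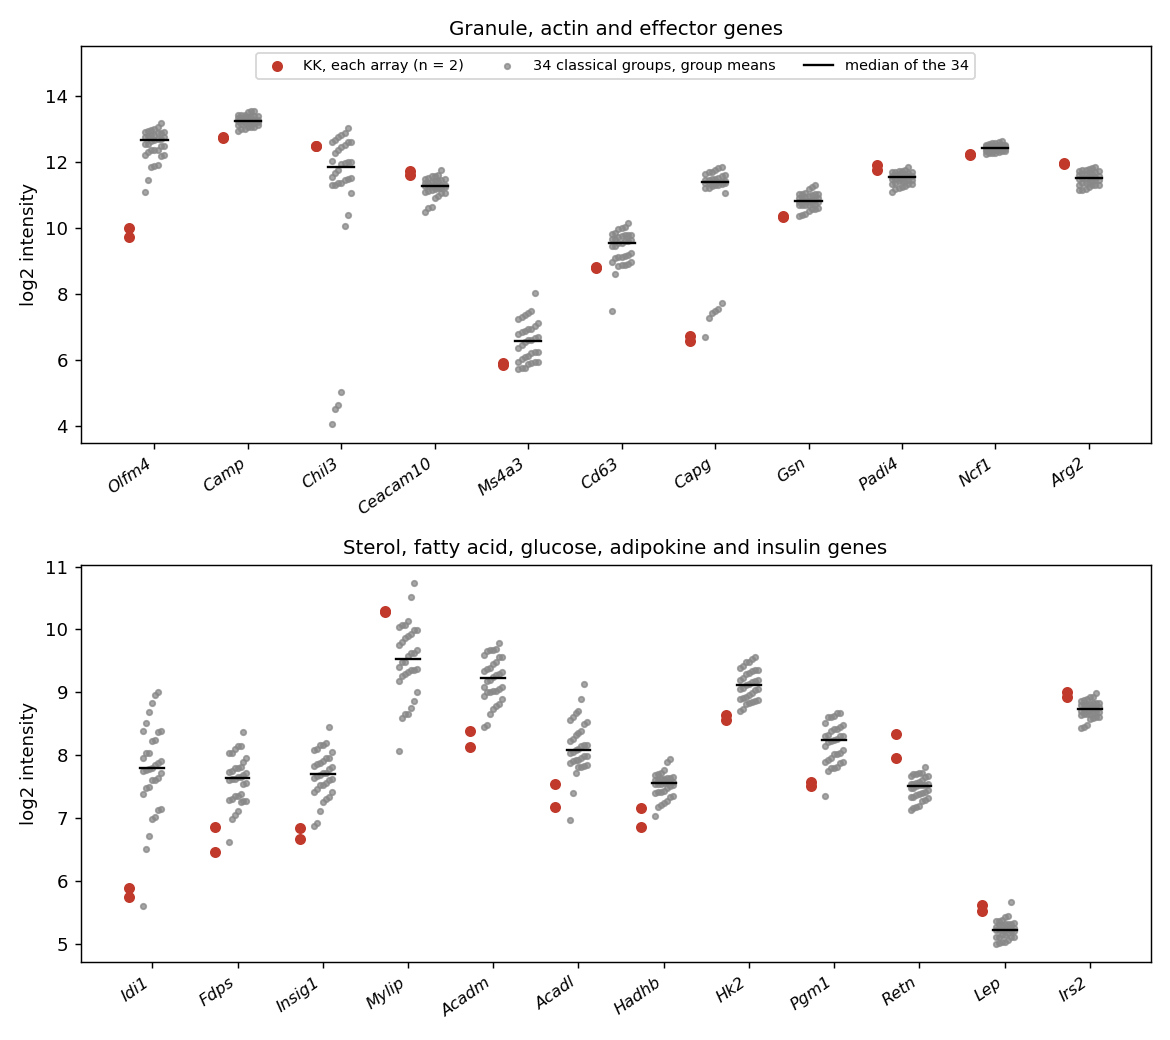
Log2 intensity (vertical axes) of granule, actin and effector genes (top) and of sterol, fatty acid, glucose, adipokine and insulin genes (bottom), with each KK array in red at the left of its gene and the 34 classical group means in grey with their median as a bar. Olfm4 and Camp lie below and Retn above all grey points, while Capg lies in a low cluster with 6 other groups.

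A large share of the sterol synthesis genes was lower in KK at the array level. Of 21 measured sterol and fatty acid synthesis genes, 9 were called lower and 1 higher, with a median difference of −0.22. Averaged over the list, the KK arrays read 7.26 and 7.20, against 7.21, 7.57 and 7.86 in the classical groups, and MA/MyJ alone lay below KK. The count of lower calls was 8 and 6 without KK replicates 1 and 2. Of the 21 genes, 13 read under 7 in KK. At the strain level limma called 0 of the 21 genes, and 3 had an unadjusted p under 0.05.

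The called genes were mostly enzymes of the cholesterol route. Idi1, isopentenyl diphosphate isomerase, read 5.90 and 5.76 in KK, against 5.61, 7.79 and 9.01 (−1.95 ± 0.27, adjusted p = 2.44e-07). Fdps, farnesyl diphosphate synthase, read 6.87 and 6.47 in KK, against 6.63, 7.64 and 8.37 (−0.94 ± 0.16, adjusted p = 2.03e-05). Insig1, which holds the sterol sensor in the endoplasmic reticulum, read 6.67 and 6.85 in KK, against 6.87, 7.70 and 8.46 (−0.94 ± 0.16, adjusted p = 2.97e-05), below every classical group. The wild-derived group titled CAS at 6.58 and MSM/Ms at 6.78 were also below the classical range for Insig1, and the other wild-derived groups lay within it. Idi1, Fdps and Insig1 did not pass at the strain level (limma adjusted p = 0.377, 0.426 and 0.406). The other called falls in the list were Hmgcs1 (−0.63), Sqle (−0.77), Fdft1 (−0.76), Cyp51 (−0.57), Srebf2 (−0.42) and Acaca (−0.53). Mylip, a ubiquitin ligase that degrades the LDL receptor, was the 1 higher gene, at 10.28 and 10.30 in KK, against 8.08, 9.54 and 10.74 (0.77 ± 0.12, adjusted p = 1.51e-06).

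Some fatty acid oxidation enzymes were lower as well. Of 25 fatty acid use and lipid droplet genes, 6 were called lower and 2 higher, with a median difference of −0.00. Acadm, the medium-chain acyl-CoA dehydrogenase, read 8.39 and 8.13 in KK, against 8.46, 9.23 and 9.78 (−0.94 ± 0.14, adjusted p = 1.38e-06), below all 34 groups. Acadl, the long-chain enzyme, read 7.55 and 7.19 in KK, against 6.97, 8.09 and 9.13 (−0.78 ± 0.15, adjusted p = 1.6e-04). Hadhb, a subunit of the trifunctional protein, read 7.17 and 6.86 in KK, against 7.03, 7.56 and 7.95 (−0.51 ± 0.13, adjusted p = 0.00464). The other calls were Cpt2 (−0.31), Hadha (−0.39) and Lpl (−0.46) lower, and the coactivator Ppargc1a (0.27) and the triglyceride enzyme Dgat1 (0.39) higher. Much of this list rested on 1 array: without KK replicate 2 the count of lower calls was 1, against 4 without KK replicate 1, and Acadl and Hadhb missed the threshold (0.113 and 0.376). The higher calls numbered 0 without either KK array, and 1 under a common median or with the replicate number as a block.

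Glucose handling genes were read beside the shares over all genes, 9.40% called lower and 5.76% called higher. Of 22 glycolysis, glycogen and pentose phosphate genes, 3 were called lower and none higher, with a median difference of −0.12. The difference was negative for 19 of the 22, and the KK list mean of 10.35 had 3 classical groups below it. Pgm1, phosphoglucomutase, read 7.51 and 7.58 in KK, against 7.36, 8.24 and 8.68 (−0.64 ± 0.13, adjusted p = 2.19e-04). Hk2, hexokinase 2, read 8.57 and 8.64 in KK, against 8.71, 9.12 and 9.57 (−0.52 ± 0.10, adjusted p = 2.16e-04), and belongs to the stretch around M1ap. Of 16 insulin signalling and glucose transport genes only Irs2, an insulin receptor adaptor, was called, at 9.01 and 8.92 in KK, against 8.43, 8.74 and 8.99 (0.24 ± 0.08, adjusted p = 0.0494). That call was lost under a common median (0.202), the trended and robust prior (0.0606), the replicate number as a block (0.0638) and without either KK array (0.350 and 0.239).

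Among 10 leptin and adipokine genes, 2 were called higher and none lower. Retn, which encodes resistin, a hormone that mouse fat releases, read 7.96 and 8.34 in KK, against 7.14, 7.52 and 7.82 (0.67 ± 0.11, adjusted p = 2.16e-05). Both KK arrays were above every classical group, and the 5 wild-derived groups read from 6.75 to 7.21. The Retn call was lost without KK replicate 2 (0.0751), and Retn passed at the strain level without KK replicate 1 (0.0120). Lep, leptin itself, read 5.63 and 5.53 in KK, against 5.01, 5.23 and 5.67 (0.34 ± 0.09, adjusted p = 0.00611), all low levels under 7. The Lep call did not hold without either KK array (differences of 0.29 and 0.39).

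Inflammation and stress hormone genes were read beside the same shares, 9.40% of all genes called lower and 5.76% called higher. Of 20 interleukin-1, alarmin and inflammation genes, 1 was called lower and none higher: Il1r2, the interleukin-1 decoy receptor, at 9.85 and 10.06 in KK, against 9.72, 10.28 and 11.09 (−0.37 ± 0.12, adjusted p = 0.0309), a call lost after quantile normalization (0.0966) and without either KK array. Of 12 glucocorticoid-responsive genes 2 were called lower and none higher. Fkbp5, a receptor co-chaperone encoded near Armc12, read 8.01 and 7.91 in KK, against 8.14, 8.61 and 9.13 (−0.68 ± 0.13, adjusted p = 8.86e-05). Dusp1, a phosphatase of stress kinases, read 10.76 and 10.45 in KK, against 10.70, 11.25 and 12.16 (−0.69 ± 0.20, adjusted p = 0.0121), and its call was lost without either KK array (0.0559 and 0.391).

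Interferon-stimulated genes were split by gene. Of 20, 1 was called higher and 4 lower, with a median difference of −0.15. Oasl2, an oligoadenylate synthetase-like antiviral protein, read 10.90 and 10.67 in KK, against 6.03, 9.79 and 11.34 (1.37 ± 0.17, adjusted p = 3.82e-08), and KK ranked 7th of 35. The lower calls were Oas1a (−0.52), Stat2 (−0.45), Ifih1 (−0.42) and Xaf1 (−0.55); none of the 4 remained called without KK replicate 2.

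Redox and stress genes also went both ways. Of 17 glutathione and redox genes, 3 were called lower and 1 higher. Prdx1, a peroxide-reducing peroxiredoxin, read 6.62 and 6.13 in KK, against 6.51, 7.83 and 8.69 (−1.36 ± 0.19, adjusted p = 5.33e-07). Gsr, glutathione reductase, read 12.46 and 12.50 in KK, against 11.25, 11.71 and 12.55 (0.57 ± 0.07, adjusted p = 4.25e-08), ranking 6th of 35. Chac1, which degrades glutathione during the integrated stress response, read 9.10 and 9.28 in KK, against 7.29, 8.23 and 9.13 (0.99 ± 0.12, adjusted p = 1.02e-08). Pdia4, a disulfide isomerase of the endoplasmic reticulum, read 6.54 and 6.53 in KK, against 6.63, 7.03 and 7.72 (−0.56 ± 0.13, adjusted p = 0.00104), a call lost without KK replicate 2 (0.0660).

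Arg2, the mitochondrial arginase, was higher, at 11.96 and 11.93 in KK, against 11.13, 11.52 and 11.83 (0.44 ± 0.10, adjusted p = 8.99e-04), and KK was the highest of the 35 groups. Like Capg, Arg2 was named with its extreme KK level already known. It was the 1 called gene of 11 in the arginine and nitric oxide list, and the call was lost without KK replicate 1 (0.0521).

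**Figure D4:**
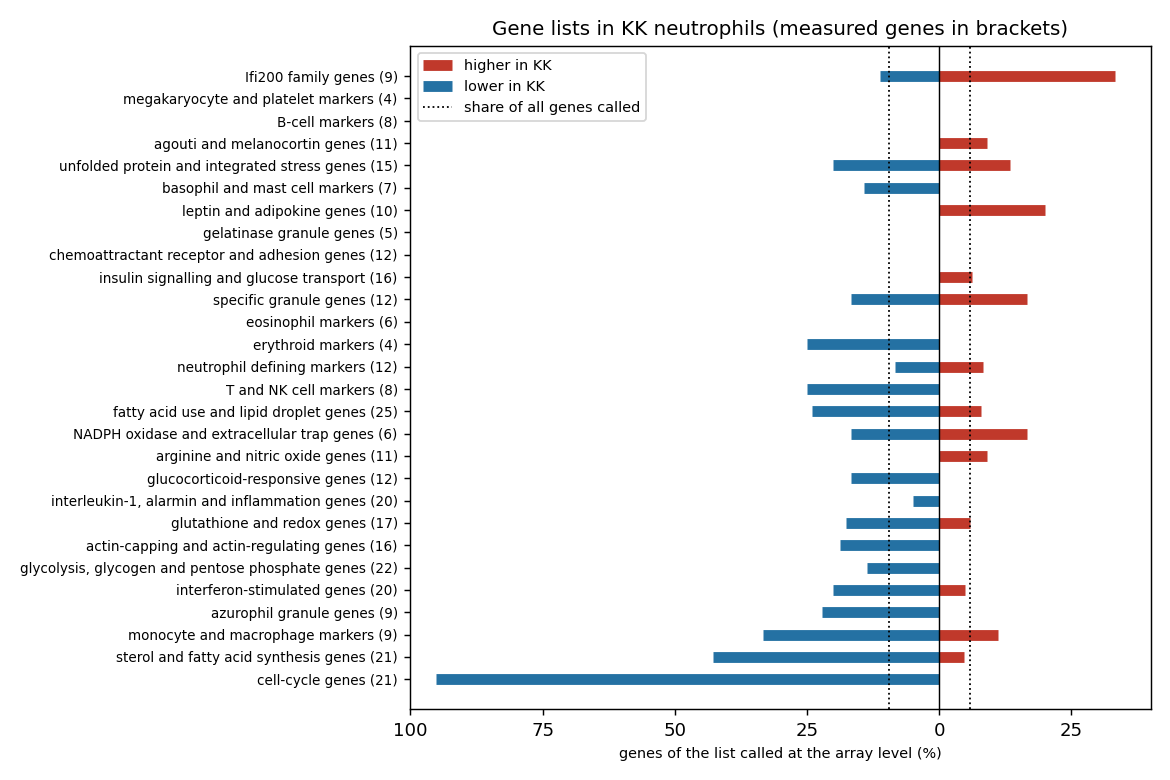
Share of each list's measured genes (horizontal axis, percent) called lower (blue, to the left) or higher (red, to the right) in KK against the 34 classical groups at the array level, with dotted lines at the shares over all genes, 9.40% lower and 5.76% higher. Lists run by median difference; cell-cycle and sterol synthesis genes have the longest blue bars, with 20 of 21 and 9 of 21 genes lower.

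Markers of other marrow cells were read beside these lists. Monocyte and macrophage markers had 3 of 9 called lower and 1 higher, with a KK list mean of 7.15 against 6.96 to 7.79. Adgre1, a surface receptor that marks mature macrophages, read 6.32 and 6.47 in KK, against 6.72, 7.69 and 9.08 (−1.47 ± 0.16, adjusted p = 4.34e-10), below all 34 groups. The wild-derived JF1/Ms at 6.55 and the groups titled CAS at 6.63 and WSB at 6.71 were also below the classical range, while MSM/Ms and PWD/PHJ lay within it. Cd68, a lysosomal protein of phagocytes, read 10.44 and 10.43 in KK, against 8.57, 9.80 and 10.31 (0.73 ± 0.16, adjusted p = 5.68e-04), above all 34. The complement genes C1qb (−0.67) and C1qc (−0.54) were the other lower calls, and both were lost without either KK array.

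T and NK cell markers had 2 of 8 called lower, with a list mean of 6.21 in KK against 5.96 to 6.78. Cd3d, a T-cell receptor chain, read 7.69 and 7.39 in KK, against 6.20, 9.53 and 10.23 (−1.34 ± 0.14, adjusted p = 1.51e-10), where 7 classical groups were lower than KK. Erythroid markers had 1 of 4 called lower (6.35 in KK against 6.26 to 6.60) and basophil and mast cell markers 1 of 7 (5.72 in KK against 5.47 to 5.75), and both counts were 0 without either KK array. B-cell markers (6.17 in KK against 5.89 to 6.38), eosinophil markers (6.52 against 6.31 to 6.88) and megakaryocyte markers (6.77 against 6.31 to 7.86) had 0 called of 8, 6 and 4, with 1 gene each at an unadjusted p under 0.05 in limma. All these list means lay within the classical range, and their part in the differences above was not tested.

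KK was also set against DDY/JclSidSeyFrkJ, another stock of Japanese origin, and against NON/ShiLtJ and NOD/ShiLtJ, which are used in diabetes research, each with 2 arrays. These comparisons share the KK arrays with each other and with the classical comparison. Against DDY 2370 probe sets were called (9.51%), 692 higher (2.78%) and 1678 lower (6.73%). Against NON 3715 were called (14.9%), 1269 higher (5.09%) and 2446 lower (9.81%). Against NOD 4102 were called (16.5%), 1636 higher (6.56%) and 2466 lower (9.89%). The counts without 1 array of either group ran from 825 to 1671 for DDY, 2053 to 3473 for NON and 1387 to 3193 for NOD.

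Cell-cycle genes were called lower in KK in 15, 21 and 20 of 21 cases against DDY, NON and NOD, with list means of 7.13 in KK, 8.15 in DDY, 9.50 in NON and 8.58 in NOD. NON was the highest of all 34 classical groups on that list. Sterol and fatty acid synthesis genes were called lower in 12, 11 and 4 of 21 cases, with list means of 7.23 in KK, 7.86 in DDY, 7.75 in NON and 7.46 in NOD, DDY being the classical highest.

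Olfm4 averaged 9.87 in KK, against 11.08 in DDY, 12.89 in NON and 12.65 in NOD, and each difference passed (−1.21, −3.02 and −2.78, adjusted p = 1.85e-10, 4.11e-25 and 8.06e-24). Retn averaged 8.15 in KK, against 7.71 in DDY, 7.14 in NON and 7.27 in NOD, and passed against NON and NOD but not against DDY (0.44 ± 0.16, adjusted p = 0.0676). Capg averaged 6.64 in KK, against 11.44 in DDY, 11.39 in NON and 7.41 in NOD. Arg2 averaged 11.94 in KK, against 11.72 in DDY, 11.52 in NON and 11.30 in NOD, with an adjusted p of 0.290 against DDY.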

How the data were processed

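The authors deposited 1 linear intensity per probe set and array, which the values themselves show to be unlogged. Per the submitters' processing notes the tools were Affymetrix Power Tools and RMA. Their versions, the genome build and the probe annotation were not given in the sources used here. Of 24922 probe sets, 21425 had 1 gene symbol in the platform's gene table, 1399 several and 2098 none. Values were taken to log2 without further scaling, and a gene was represented by its brightest probe set, which left 19752 genes. Gene names and neighbour order came from a RefSeq gene table (GRCm38.p6), of which no coordinate was used. The KK arrays correlated at 0.996 and had median intensities of 108.3 and 109.6, within the 97.2 to 114.8 of all 81 arrays; no scan batches are labelled, and the number of arrays, not read depth, limits the precision.

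Groups followed the titles. Of the groups, 5 have a background label that disagrees with the title (titled BPL, BTBR, Balb, C57BR and DBA2), FVB and SWR had 1 array, and C57BL/6J had 5. Tests used limma 3.58.1 in R 4.3.3 (lmFit, eBayes, Benjamini-Hochberg) and were tested on simulated data. The strain-level fit compared the KK mean with 34 group means. The array-level fit gave each of 40 groups a coefficient over 81 arrays and contrasted KK with the equally weighted classical mean, or with DDY, NON or NOD. Intervals are at 95%, and strain-level differences carry the strain-level SE while list genes carry the array-level SE.

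Named genes were up to 12 per direction by size of difference with both KK arrays outside the classical range and a level of at least 7, called ones first, plus up to 4 members of each of 28 lists, all agouti, melanocortin and neutrophil marker genes, Capg, Olfm4, Arg2 and Ifi203, and called neighbours within 4 measured genes. Members and lists (349 of 389 entries matched) were chosen with earlier results of these data known. Capg, Olfm4, Arg2 and Ifi203 were named because their extreme KK level was known from those results. Their ranks and p-values therefore add no independent support. Named singly by a list's count of calls, and outside that rule, are Hmgcs1, Sqle, Fdft1, Cyp51, Srebf2, Acaca, Cpt2, Hadha, Ppargc1a, Dgat1, Stat2, Ifih1 and Mcm3, as are Tacr1 and Loxl3 beside M1ap. Alternatives were quantile normalization, a common median, a trended and robust prior, a minimum mean of 7, each KK array left out, label groupings, single-array groups left out, wild-derived groups added, and the replicate number as a block.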

Additional observations from a re-analysis of the deposited data

How the results depend on the processing

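Strain-level calls numbered 19; they were 12 with a minimum mean of 7, which removed all higher genes but Pxt1, 35 after quantile normalization (18 shared), 6 with the wild-derived groups added, 22 and 358 without 1 KK array, and 17 to 21 otherwise. Array-level calls numbered 3744, and 1034 to 1703 without 1 KK array. Leaving out 1 array of either group gave 825 to 1671 calls against DDY (2370), 2053 to 3473 against NON (3715) and 1387 to 3193 against NOD (4102). With the replicate number as a block the counts were 19 at the strain level, 3568 at the array level, 2322, 3647 and 4026. The numbers do not pair the arrays: deviations of same-numbered arrays from their group means correlated with KK between −0.218 and 0.235 over 34 groups, over 0.1 in 7 and under −0.1 in 8.

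Of 15 genes called at the strain level, 6 passed under every alternative in which they were tested; at the array level 54 of 86 did. The directions that turned were of uncalled genes: without KK replicates 2 and 1, agouti (symbol a) was −0.188 and 0.068 and Ly6g 0.029 and −0.006, and Ly6g was −0.043 with a common median. Idi1, Hadhb and Prdx1 had a second probe set with differences of −2.06, −0.50 and −1.40. With 2 KK arrays from 1 stock, small differences could not be resolved.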
